A study of Mus musculus with 6 samples.

Results

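The 6 genes of thyroid hormone activation, uptake and reception described here were measured in mouse bone marrow-derived macrophages, which mature from marrow precursors in a dish. They were Dio2, Slc16a10, Thra, Thrb, Rxra and Rxrb, taken by symbol from a deposited table of 54532 genes, and all 6 were among the 14333 genes with enough counts to be tested. The group labelled XKO came from Xbp1ΔMf mice, which by their label lack Xbp1 in macrophages, and the group labelled XWT from Xbp1FL/FL mice, whose Xbp1 alleles are floxed. The product of Xbp1 is a transcription factor that switches on folding and secretory genes during stress of the endoplasmic reticulum. All mice were C57BL/6 and 32 to 34 weeks of age, and the sources used here do not give the driver of the deletion. Cells of both groups were primed with lipopolysaccharide (LPS), then held for 48 h in medium conditioned by wild-type primary hepatocytes, and there was no group without LPS or without that medium. RNA of 3 libraries per group was sequenced. The 6 genes were selected on the log2 fold changes and counts of the XKO against XWT comparison, with earlier results in view and Dio2 among the largest rises, so their differences between the groups are given as a description, with no p-value and no call.

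Thyroid hormone reaches most cells as the prohormone thyroxine (T4). Membrane carriers take it up, deiodinases of the endoplasmic reticulum and plasma membrane either activate it to triiodothyronine (T3) or inactivate it, and T3 binds the nuclear receptors TRα and TRβ, which sit on DNA mostly as heterodimers with a retinoid X receptor (RXR). DIO2 is the deiodinase that makes T3 inside the cell. It is a selenoprotein whose activity is limited by ubiquitination, and its gene responds to cAMP in several tissues. In macrophages, RXRs are also the partners of the lipid-sensing receptors LXR and PPARγ.

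The promoter of Dio2 is shown because Dio2 had the largest difference of the 6 genes and because it holds a match to the cAMP response element. The window holds the 250 bases before the RefSeq start (GRCm38.p6, chr12:90739039-90739288, minus strand, written 5′ to 3′). Capitals mark that match, 8 palindromic letters that read the same on both strands.

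Dio2 promoter: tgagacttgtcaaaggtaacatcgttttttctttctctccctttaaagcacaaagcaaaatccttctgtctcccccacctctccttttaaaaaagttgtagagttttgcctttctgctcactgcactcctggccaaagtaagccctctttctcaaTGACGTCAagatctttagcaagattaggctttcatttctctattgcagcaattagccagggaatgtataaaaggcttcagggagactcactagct

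The match TGACGTCA begins 95 bases before the RefSeq start, which lies 600 bases upstream of the gene's start in the deposited table. The same letters occurred in 508 of 32851 such windows of mouse genes (1.55%), and in none of the windows listed for Slc16a10, Thrb, Rxra and Rxrb. A thyroid hormone response element in its direct-repeat form, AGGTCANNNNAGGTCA, was in none of the windows of these 5 genes on either strand and in 5 of all 32851. Thra has no entry. These are matches of letters only, and no factor binding was measured.

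The libraries held 28354866 to 30891729 counts. Of the 14333 genes tested across the whole table, 2005 (14.0%) passed an adjusted p of 0.05 between XKO and XWT (edgeR quasi-likelihood test), 860 higher (6.00%) and 1145 lower (7.99%), and the 3 XKO values lay outside the range of the 3 XWT values for 36.2%. Scaling by library totals alone turned the share of higher genes among those called to 60.7%, against 42.9% here. The number called was 806 to 915 without 1 XKO library, 1614 without XWT 1, 1209 without XWT 2 and 4237 without XWT 3. Xbp1 itself had 76.8, 79.4 and 76.5 CPM (counts relative to the library total after TMM scaling) in XKO 1 to 3, against 159, 157 and 132 CPM in XWT 1 to 3 (edgeR log2 fold change -0.94 with an SE of 0.077, adjusted p = 1.93e-06), a count that includes reads outside any deleted part. All 8 macrophage markers were detected, led by Lyz2 and Adgre1, and summed to 25278 to 26948 CPM in XKO and 39551 to 47892 CPM in XWT. Of them 1 passed the threshold, Lyz2, which was lower in XKO with a mean of 14274 CPM, against 31140 CPM in XWT. Lyz2 made up most of the gap between the sums, and the other 7 macrophage markers did not pass. The 12 markers of fibroblasts and stroma, led by Col1a1 and Col1a2, summed to 64.6 to 78.3 CPM in XKO and 668 to 772 CPM in XWT. Of their 10 tested members, 9 were lower in XKO. Col1a1 and Col1a2 made up most of both sums, with means of 27.5 and 18.2 CPM in XKO and 277 and 188 CPM in XWT. Lum and Thy1 were not tested, with 1 and 7 counts in all of XWT. Dcn had a mean of 1.14 CPM in XWT, and Fap did not pass (0.519 CPM in XKO, 0.607 CPM in XWT). The 10 markers of neutrophils and their precursors, led by Lcn2 and Mmp8, summed to 61.3 to 65.0 CPM in XKO and 30.8 to 39.8 CPM in XWT, with 7 of 8 tested members higher in XKO and Ly6g, their defining surface antigen, at 0 counts in all libraries. Of the 10 hepatocyte markers, 8 including Alb and Ttr had 0 counts in all 6 libraries, and the others summed to under 1 CPM. Whether the other cell types contribute to the values below was not tested, and in bulk RNA fewer cells of a type and less RNA per cell cannot be told apart.

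Per gene length, the carrier gene Slc16a10 was the most abundant of the 6 in both groups and the receptor gene Thrb the least. FPKM are read levels divided by gene length and by a library total close to the TMM-scaled one, as the authors deposited them. In XKO the order of mean FPKM was Slc16a10 with 43.6 ± 0.33, Rxrb with 16.9 ± 0.25, Rxra with 15.1 ± 0.42, Thra with 3.60 ± 0.051, Dio2 with 1.84 ± 0.12 and Thrb with 0.054 ± 0.013 (SD, n = 3). In XWT it was Slc16a10 with 41.7 ± 2.37, Rxra with 20.2 ± 1.96, Rxrb with 19.5 ± 2.58, Thra with 4.62 ± 0.65, Dio2 with 0.634 ± 0.12 and Thrb with 0.144 ± 0.030 (SD, n = 3). Neighbours in these orders did not overlap between libraries, except for Rxra and Rxrb in XWT. Averaged over the 6 libraries and set among the FPKM of all tested genes, Slc16a10 stood at percentile 92.2, Rxrb at 81.1, Rxra at 80.6, Thra at 47.6, Dio2 at 26.4 and Thrb at 2.67.

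**Figure D1:**
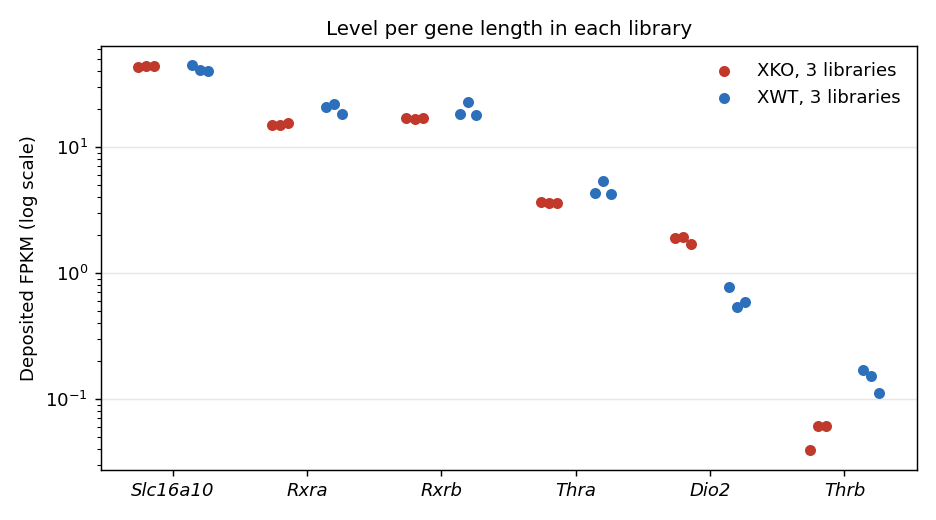
Deposited FPKM on a log axis for each of the 6 genes, with 1 point per library, XKO left of XWT within each gene. Slc16a10 averages 43.6 FPKM in XKO and 41.7 FPKM in XWT, Thrb 0.054 FPKM in XKO and 0.144 FPKM in XWT, and the Dio2 points lie higher in XKO (1.84 ± 0.12 FPKM) than in XWT (0.634 ± 0.12 FPKM; SD, n = 3 each).

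The groups did not overlap in CPM for any gene but Slc16a10, with Dio2 higher and Thra, Thrb, Rxra and Rxrb lower in XKO. Since this comparison was used to choose the genes, nothing is read from that count against the 36.2% not overlapping among all tested genes.

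Dio2 (ENSMUSG00000007682, chromosome 12 from 90724552 to 90738438, minus strand) encodes the activating deiodinase. Its counts were 343, 347 and 305 in XKO 1 to 3, against 121, 93 and 108 in XWT 1 to 3, which made 11.1, 11.3 and 9.96 CPM in XKO against 4.49, 3.13 and 3.46 CPM in XWT. The lowest XKO library was therefore above the highest XWT library by a wide margin, and the libraries of neither group spread as far as the gap between them. The level in XKO was 2.92 times that in XWT (edgeR log2 fold change 1.55 with an SE of 0.147), the 40th highest log2 fold change of the 14333 tested genes. It was between 1.44 without XWT 2 and 1.70 without XWT 1 when single libraries were left out. The coefficient of variation between libraries was 6.57% in XKO and 19.2% in XWT, where counting error alone gives 5.49% and 9.65%. The neutrophil markers, at 61.3 to 65.0 CPM in XKO and 30.8 to 39.8 CPM in XWT, were higher in the same libraries, and their part in the Dio2 difference was not tested.

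The other deiodinases were at the limit of detection. Dio1, which both activates and inactivates the hormone, had 0 counts in each XKO library, against 2, 1 and 1 in XWT. Dio3, the inactivating enzyme, had 0 counts in each XKO library, against 0, 4 and 4 in XWT. A count of 0 allows up to 3 counts per library, so neither gene can be said to be absent or to differ. The bidirectional transcript Gm26512, which shares 100 exonic bases with Dio2 on the other strand, had 9, 13 and 11 counts in XKO and 6, 4 and 9 in XWT, few beside those of Dio2.

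Slc16a10 (ENSMUSG00000019838, chromosome 10 from 40033532 to 40142258, minus strand) encodes MCT10, a carrier of T3 and of aromatic amino acids. It had 319, 323 and 324 CPM in XKO, against 326, 300 and 296 CPM in XWT. XWT 1 was above all XKO libraries and the groups overlapped. The log2 fold change was 0.07 with an SE of 0.064. The ratio of Slc16a10 to Dio2 FPKM was 22.8, 22.7 and 25.7 in XKO, against 57.5, 75.6 and 67.6 in XWT.

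Thra (ENSMUSG00000058756, chromosome 11 from 98740638 to 98769006, plus strand) encodes TRα1 and, by alternative splicing, the non-hormone-binding TRα2, which counts per gene do not separate. It had 17.0, 16.6 and 16.6 CPM in XKO, against 19.9, 24.7 and 19.5 CPM in XWT. All XKO libraries were below all XWT libraries, and XWT 2 stood above the other XWT libraries. The log2 fold change was -0.35 with an SE of 0.102, which is 0.783 times the XWT level. It was -0.24 without XWT 2, -0.28 with library totals alone and -0.23 with GC and length trends removed. Thra shares 263 of its 4614 exonic bases with the 3′ end of Nr1d1, a circadian repressor gene on the opposite strand, and the sources used here do not say whether the counting used strand, so reads of that stretch cannot be assigned to either gene with certainty. Nr1d1 had 3.54, 3.64 and 4.15 CPM in XKO, against 8.09, 4.92 and 6.11 CPM in XWT (edgeR log2 fold change -0.75 with an SE of 0.183, adjusted p = 0.0161). Its call ended without XKO 1, XKO 2 or XWT 1, with log2 fold changes over single left-out libraries of -0.91 to -0.55.

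Thrb (ENSMUSG00000021779, chromosome 14 from 17660261 to 18038090, plus strand) encodes TRβ, the form that predominates in liver. It had 9, 14 and 14 counts in XKO, against 34, 33 and 26 in XWT, or 0.290, 0.455 and 0.457 CPM in XKO against 1.26, 1.11 and 0.832 CPM in XWT. The groups did not overlap, but they rested on 37 counts in all of XKO and 93 in all of XWT, and the gene entered the test through its XWT counts. Its spread between libraries, 23.9% in XKO and 20.4% in XWT, was close to the 28.5% and 18.0% of counting error alone. The log2 fold change was -1.40 with an SE of 0.353, and -1.56 to -1.22 with single libraries left out. Thra made up 99.0%, 98.3% and 98.3% of the summed FPKM of both receptor genes in XKO, against 96.2%, 97.3% and 97.4% in XWT. The sum of the stromal markers, mostly Col1a1 and Col1a2, was 64.6 to 78.3 CPM in XKO and 668 to 772 CPM in XWT. It moved in the same direction as Thra, Thrb, Rxra and Rxrb. The part of these markers in the differences of the 4 receptor genes was not tested.

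Rxra (ENSMUSG00000015846, chromosome 2 from 27676440 to 27762957, plus strand) encodes RXRα, the form that predominates in liver. It had 81.8, 81.3 and 85.6 CPM in XKO, against 113, 120 and 99.6 CPM in XWT. The highest XKO library was below the lowest XWT library. The log2 fold change was -0.42 with an SE of 0.074, which is 0.750 times the XWT level, and it was -0.49 to -0.36 with single libraries left out and -0.31 with GC and length trends removed. Rxrb (ENSMUSG00000039656, chromosome 17 from 34031812 to 34038393, plus strand), the widely expressed second RXR gene, had 63.3, 61.6 and 63.1 CPM in XKO, against 66.8, 83.0 and 67.1 CPM in XWT. These groups did not overlap either, but XWT 2 stood far above XWT 1 and XWT 3, which were close to the XKO libraries. The log2 fold change was -0.21 with an SE of 0.084, and it was -0.10 without XWT 2 and -0.07 with GC and length trends removed. Rxrg had 0 counts in all 6 libraries.

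Set against each other per gene length, Rxrb had a higher FPKM than Rxra in all XKO libraries and in 1 XWT library. By CPM, which is not divided by length, Rxra was above Rxrb in every library. The order in FPKM therefore rests on the deposited gene lengths, 3698 bases for Rxrb and 5462 for Rxra. The ratio of Rxra to Rxrb FPKM was 0.875, 0.893 and 0.918 in XKO, against 1.14, 0.975 and 1.01 in XWT, with no overlap. Rxra made up 46.7%, 47.2% and 47.9% of RXR FPKM in XKO, against 53.3%, 49.4% and 50.1% in XWT. The ratio of Rxra to Thra FPKM overlapped between the groups, at 4.07, 4.15 and 4.35 in XKO against 4.78, 4.08 and 4.32 in XWT. That of Dio2 to Thra was 0.516, 0.541 and 0.476 in XKO against 0.179, 0.101 and 0.141 in XWT.

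**Figure D2:**
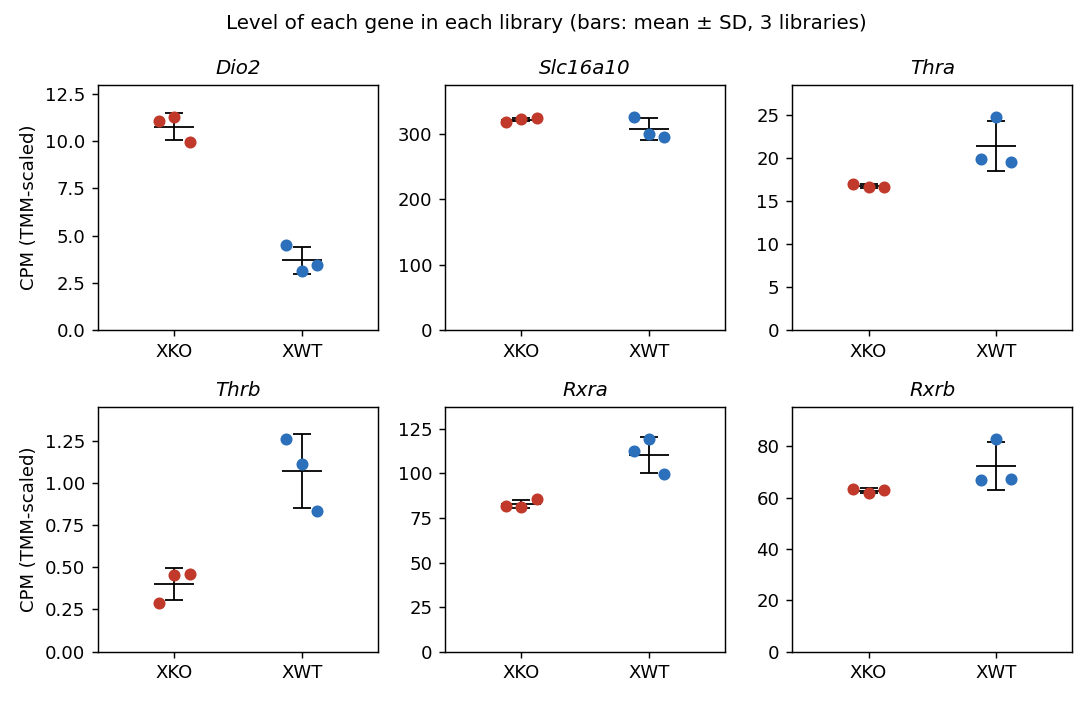
CPM of the 6 genes in each library (points) with the mean and SD of 3 libraries (bars), XKO left of XWT, each axis starting at 0. Dio2 lies at 9.96 to 11.3 CPM in XKO and 3.13 to 4.49 CPM in XWT, the receptor genes lie lower in XKO, and in XWT 2 Thra and Rxrb stand above the other XWT libraries.

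By coefficient of variation, the XKO libraries were the tighter group for 5 of the 6 genes, all but Thrb. For Dio2 the SDs were nearly equal, at 0.707 CPM in XKO and 0.709 CPM in XWT. The share of all tested genes with tighter XKO libraries was not counted, so this is not read as a trait of the 6 genes. For Slc16a10, Thra and Rxrb the coefficient of variation in XKO was 0.819%, 1.38% and 1.48%, at or below the counting error of 1.00%, 4.41% and 2.28%, against 5.41%, 13.7% and 12.8% in XWT. The fit gives both groups of a gene the same dispersion.

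The genes whose log2 CPM followed each of the 6 most closely over the 6 libraries were named by Pearson's r among 9404 genes of at least 5 CPM (9405 for Thrb), as a description, since all libraries share the split into 2 groups. For Dio2 they were Cd24a (r = 0.998), Abcc1 (0.997) and Acpp (0.996), with log2 fold changes of 1.25, 0.26 and 0.54, and 217 genes had an r above 0.95. For Slc16a10 they were Pla2g7 (0.992), Cyfip2 (0.991) and Slamf7 (0.990), with 39 genes above 0.95. For Thra they were Rabac1, Arap1 and Lamtor1 (0.998 each), for Thrb Slc35f5 (0.993), Ostc (0.992) and Lrrc61 (0.991), for Rxra Dpm3 (0.999) and Nfatc2 (0.998), and for Rxrb Cndp2 (0.999), Pofut2 (0.997) and Ubxn1 (0.997).

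Around these genes, 126 others of the pathway were listed by role in 12 lists, of which 91 could be tested and 18 had 0 counts in all libraries. In XKO 15 rose and 9 fell (edgeR adjusted p under 0.05), so that 26.4% were called against 14.0% of all tested genes. The median log2 fold change was -0.01, against 0.00 for all tested genes. The lists were chosen with earlier results of these data known, so nothing is read from the larger share. Among the 9 falls, those of Adcy6 and Pdk4 belong to genes that entered the test only through their XWT counts. By list, the share called was 11.1% for RXR partner receptors, 12.5% for genes that respond to the hormone, 14.3% for corepressors and coactivators and 16.7% for the ubiquitin control of DIO2, all near that 14.0%. It was 27.3% for selenocysteine insertion, 33.3% for the cAMP pathway, 35.7% for genes driven by RXR heterodimers and 50% for the membrane carriers and for the integrin, lists of 2 to 21 tested genes. The 15 became 7, 5 and 5 without XKO 1, XKO 2 and XKO 3, and the 9 became 16 without XWT 3.

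Of the other membrane carriers, 6 of 9 were tested, 2 rose and 1 fell. Slco4a1, an organic anion carrier of thyroid hormones, rose to 66.4 ± 2.76 CPM in XKO, against 49.5 ± 4.84 CPM in XWT (SD, n = 3 each; edgeR log2 fold change 0.43, adjusted p = 0.0032). Slc3a2, the heavy chain that LAT1 and LAT2 need at the membrane, rose by a log2 fold change of 0.24 (edgeR adjusted p = 0.0196). Its light-chain partners Slc7a5 (0.06) and Slc7a8 (0.16) did not pass the threshold. Slco2b1, another organic anion carrier, fell to 1.10 ± 0.33 CPM in XKO, against 2.11 ± 0.14 CPM in XWT (SD, n = 3 each; edgeR log2 fold change -0.93, adjusted p = 0.0296). The call of Slc3a2 ended without any XKO library (0.22 to 0.26 over single left-out libraries) and that of Slco2b1 without XKO 2, XKO 3, XWT 1 or XWT 2 (-1.21 to -0.81). Of the hormone-binding proteins Crym, Ttr, Serpina7 and Alb, none had a count, and of 11 genes of hormone synthesis in the thyroid gland none was tested, Tg having the most counts with 4, 7 and 4 in XKO and 3 each in XWT.

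Among 6 genes of the ubiquitin control of DIO2, 1 rose and none fell (0 to 2 higher and 0 or 1 lower over the other settings). Wsb1, the adaptor of the ligase that ubiquitinates DIO2, stood at 142 ± 0.67 CPM in XKO and 110 ± 20.6 CPM in XWT (SD, n = 3 each; edgeR log2 fold change 0.38, adjusted p = 0.0359). Its call ended without any 1 library but XWT 3 (0.29 to 0.54), with library totals alone and with GC and length trends removed. The deubiquitinase gene Usp33 (0.26) and March6, a further ligase of DIO2 (0.05), did not pass. Among 11 genes of selenocysteine insertion and selenium supply, 2 rose and 1 fell, with 3 lower without XWT 3. Sepsecs, which makes the selenocysteine-tRNA, rose by a log2 fold change of 0.31 (edgeR adjusted p = 0.0296) and Ncl, a protein that binds the selenocysteine insertion element, by 0.26 (adjusted p = 0.021). Selenop, the secreted selenium carrier, fell to 888 ± 69.6 CPM in XKO, against 1477 ± 115 CPM in XWT (SD, n = 3 each; edgeR log2 fold change -0.73, adjusted p = 3.17e-05), a call that held without any 1 library. The call of Sepsecs ended without any 1 library but XWT 3 (0.28 to 0.35) and with GC and length trends removed, and that of Ncl without any XKO library (0.21 to 0.30).

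Of the RXR partner receptors, 9 were tested, 1 rose and none fell, with 1 lower when no filter was used and 2 lower without XWT 3. Nr4a1, an orphan receptor induced by many stimuli, rose to 4.94 ± 0.28 CPM in XKO, against 3.19 ± 0.29 CPM in XWT (SD, n = 3 each; edgeR log2 fold change 0.63, adjusted p = 0.0169), and its call ended without any XKO library or XWT 2 (0.58 to 0.71). The LXR genes Nr1h2 (-0.10) and Nr1h3 (-0.08) and Pparg (-0.25) did not pass. Of 14 corepressors and coactivators, 2 rose and none fell (14.3%, against 14.0% of all tested genes), but 2 were lower with voom and without XWT 3 and 1 with GC and length trends removed. Tbl1xr1, a subunit of the corepressor complex, rose by 0.33 (edgeR adjusted p = 0.00867) and Crebbp, an acetyltransferase coactivator, by 0.29 (adjusted p = 0.0385), while the corepressor gene Ncor1 stood at 0.02 and the deacetylase gene Hdac3 at -0.21 without passing. The call of Tbl1xr1 ended without XKO 2 or XKO 3 (0.28 to 0.39), that of Crebbp without any 1 library but XWT 3 (0.23 to 0.41). Of the integrin that binds the hormone at the cell surface, Itgav rose to 281 ± 1.21 CPM in XKO, against 203 ± 23.4 CPM in XWT (SD, n = 3 each; edgeR log2 fold change 0.47, adjusted p = 0.00155), and Itgb3 did not pass (-0.13).

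Genes of the cAMP pathway changed both ways, with 3 higher and 4 lower of 21 tested. Prkar2b, a regulatory subunit of protein kinase A, rose to 66.7 ± 0.71 CPM in XKO, against 48.4 ± 3.37 CPM in XWT (SD, n = 3 each; edgeR log2 fold change 0.46, adjusted p = 0.000699). Ptger2, a prostaglandin E2 receptor that raises cAMP, rose by 0.38 (edgeR adjusted p = 0.0118) and Atf1, a partner of CREB on the cAMP response element, by 0.27 (adjusted p = 0.0225). The falls were those of the adenylyl cyclase genes Adcy6 (-1.75), Adcy3 (-0.50) and Adcy9 (-0.28) and of the other prostaglandin E2 receptor gene Ptger4 (-0.23), with edgeR adjusted p of 0.00335, 0.00568, 0.0314 and 0.0292 in that order. Atf1, Adcy9 and Ptger4 were named after their values were seen. Adcy6 had a mean of 0.443 ± 0.16 CPM in XKO, against 1.51 ± 0.079 CPM in XWT (SD, n = 3 each), and it entered the test only through its XWT counts, whereas Adcy7, the most abundant cyclase gene by CPM, had 502 ± 13.4 CPM in XKO and 451 ± 35.7 CPM in XWT and did not pass. Creb1 (0.23), Crem (-0.19) and the phosphodiesterase gene Pde4b (0.10) did not pass, and the bile acid receptor gene Gpbar1 had 0 counts. The calls of Atf1 (0.24 to 0.30), Adcy9 (-0.31 to -0.23) and Ptger4 (-0.26 to -0.20) ended without any 1 XKO library, those of Adcy9 and Ptger4 also with library totals alone, without XWT 2 for Adcy9 and without XWT 1 for Ptger4. That of Ptger2 ended without XKO 2 or XKO 3 (0.36 to 0.42), and that of Adcy9 with GC and length trends removed.

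Of 14 genes known to respond to thyroid hormone in other tissues, 8 were tested, 1 rose and none fell (12.5%, against 14.0% of all tested genes). The count higher was 0 without any XKO library, 3 without XWT 1 and 2 without XWT 3, and 2 with library totals alone, the stricter filter, DESeq2, voom or GC and length trends removed. Klf9, a transcription factor gene that T3 induces in many tissues, had 6.21 ± 0.17 CPM in XKO and 4.24 ± 0.16 CPM in XWT (SD, n = 3 each; edgeR log2 fold change 0.55, adjusted p = 0.0164), and its call ended without any XKO library (0.53 to 0.58). Klf9 is also a known target of glucocorticoids. Me1 (0.18), Gpd2 (0.20), Atp2a2 (0.18), Cpt1a (-0.01) and Hr (-0.90) did not pass, Hr with 5, 10 and 3 counts in XKO and 12, 14 and 6 in XWT. Thrsp, which responds to T3 in liver and fat, was not tested, with 2 counts in all of XKO and 0 in XWT.

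Macrophage genes that RXR heterodimers drive changed both ways, with 2 higher and 3 lower of 14 tested, and 4 higher with library totals alone, no filter, DESeq2, voom or without XWT 3. Scd2, a fatty acid desaturase gene, rose to 271 ± 8.54 CPM in XKO, against 215 ± 7.98 CPM in XWT (SD, n = 3 each; edgeR log2 fold change 0.33, adjusted p = 0.00356), and Tgm2, a transglutaminase gene named after its value was seen, rose by 0.34 (adjusted p = 0.00463). Apoe fell to 2736 ± 150 CPM in XKO, against 4255 ± 784 CPM in XWT (SD, n = 3 each; edgeR log2 fold change -0.64, adjusted p = 0.00333). Angptl4, an inhibitor of lipoprotein lipase and a PPAR target, fell by 0.44 on the log2 scale (edgeR adjusted p = 0.00439) and Pdk4, a kinase of pyruvate dehydrogenase, fell to 0.325 ± 0.14 CPM in XKO, against 1.98 ± 0.63 CPM in XWT (SD, n = 3 each; edgeR log2 fold change -2.59, adjusted p = 0.000535). Pdk4 had 12, 5 and 13 counts in XKO, against 50, 42 and 83 in XWT, and entered the test only through XWT, where it is high. The cholesterol exporter genes Abca1 (0.23) and Abcg1 (-0.05), the LXR target Mylip (0.10) and Srebf1 (0.03) did not pass. None of the 5 calls ended without any 1 library. The stromal markers, lower in XKO in 9 of 10 tested members, moved with the falls of Pdk4, Adcy6 and Apoe, and their part in them was not tested.

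**Figure D3:**
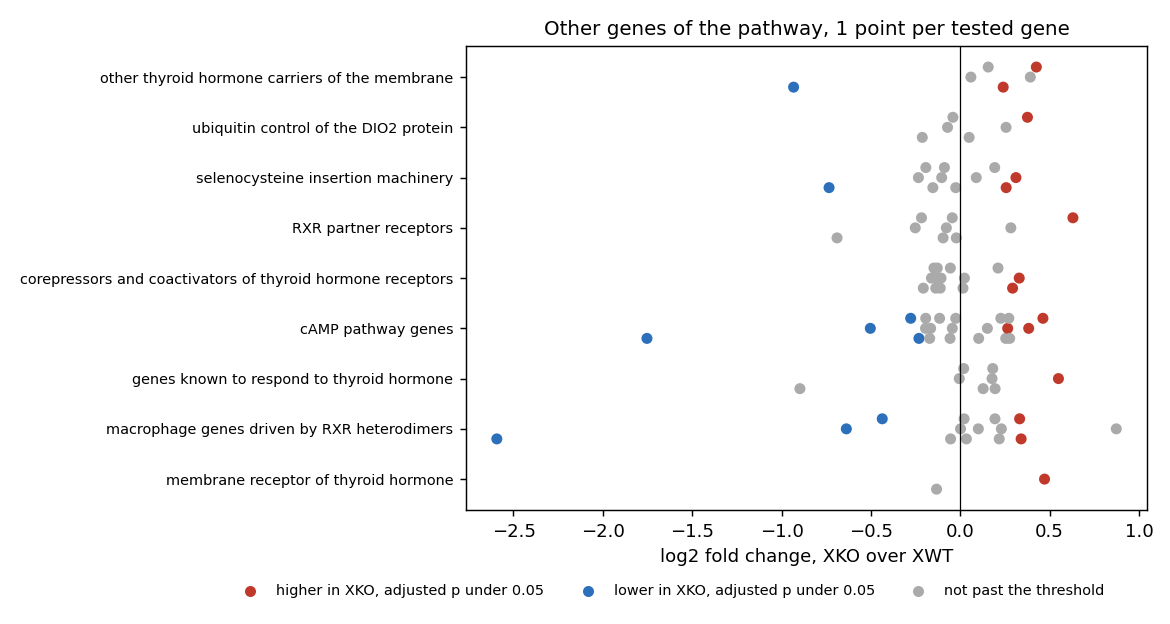
Log2 fold change of XKO over XWT for each tested gene of the pathway lists, with 1 point per gene and 1 row per list (red, higher in XKO; blue, lower in XKO; grey, not past the threshold). Nr4a1 at 0.63 is the farthest called rise, with Pdk4 at -2.59 and Adcy6 at -1.75 as the farthest called falls, both of genes that entered the test only through their XWT counts.

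**Figure D4:**
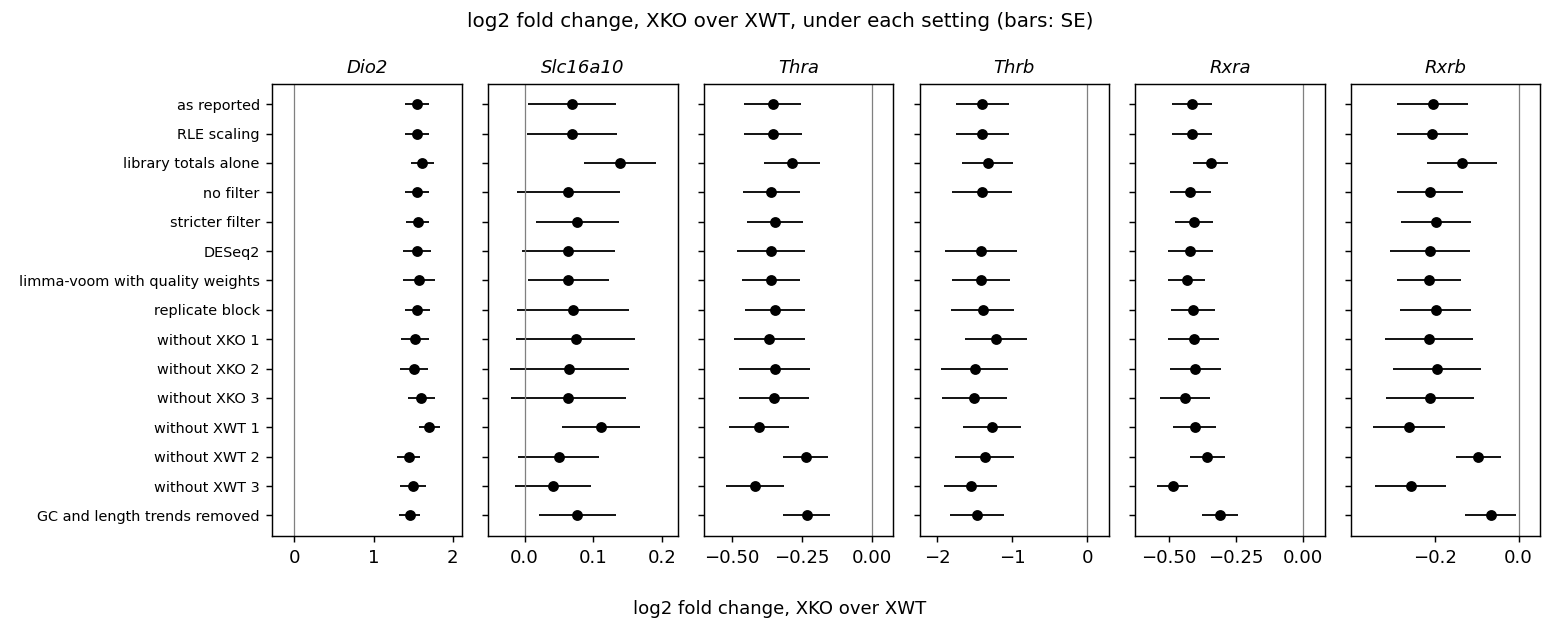
Log2 fold change of XKO over XWT with its SE (bars) for the 6 genes under each setting and with each library left out. Without XWT 2, Thra lies at -0.24 and Rxrb at -0.10, closer to 0 than the -0.35 and -0.21 of all 6 libraries, and Thrb has no value under the stricter filter.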

How the data were processed

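Gene counts of 6 libraries, 3 XKO and 3 XWT, were grouped by their titles. The authors deposited raw counts per Ensembl gene in 1 table, per the file headers, and FPKM deposited by the authors imply library totals of 0.998 to 1.01 times the TMM-scaled totals. Scaled group means (a signal), log2 values of the fold change and p-values were also deposited by the authors and were not used in a test. Bowtie 0.12.2, mm8 and mm10 are named, per the submitters' processing notes, with no role, and the sources used here do not give the counting tool or its use of strand. Per the labels' protocols, the library kit was NEBNext Ultra RNA. GENCODE M21 (GRCm38) holds 54409 of the table's gene IDs, 98.3% of them at identical coordinates.

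Counts were tested with edgeR 4.0.16 in R 4.3.3 (filterByExpr, TMM, robust quasi-likelihood fit, Benjamini-Hochberg over 14333 genes, threshold 0.05, 4 residual degrees of freedom). SEs are the log2 fold change over the square root of F. Alternatives were RLE scaling, library totals, no filter, at least 1 CPM in 3 libraries, DESeq2 1.42.0, limma 3.58.1 voom with quality weights, a replicate block and leaving out each library. Removal of GC and length trends was added after seeing the data. In a simulated XKO against XWT comparison of 14095 genes, 26% of 50 genes changed 1.25-fold, 74% of 50 changed 1.5-fold, 90% of 50 changed 2-fold and 100% of 50 changed 4-fold were recovered, with 19 false calls. Whether the libraries of a group stem from different animals or cultures is not in the labels, so the spread behind each p-value may be technical. Limits for a count of 0 cover counting error only.

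The 6 genes and the lists were chosen with earlier results of these data known. Beside the 6 genes and Xbp1, the rule names up to 4 called genes of smallest p per list, or 2 of highest CPM where none was called, genes overlapping a member, the 3 genes most like each member and 2 genes per marker list. Some genes the rule or lists hold are not reported here. Other list genes, mostly ones that did not pass, are examples chosen after their values were seen. Promoter windows are from RefSeq (GRCm38.p6), with 5 of the 6 genes matched by symbol.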

Additional observations from a re-analysis of the deposited data

How the results depend on the processing

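Since the 6 genes were chosen on this comparison, their values under the alternatives are a description. The log2 fold change of Thra was -0.28 with library totals alone, -0.23 with GC and length trends removed and -0.42 to -0.24 with single libraries left out. That of Thrb was -1.56 to -1.22 with single libraries left out, and Thrb was not tested under the stricter filter. That of Rxrb was -0.26 to -0.10 with single libraries left out. With single libraries left out, 274 to 2073 genes were higher and 532 to 2164 lower in XKO, and 5 to 22 pathway list genes were higher and 6 to 16 lower. Library totals alone gave 749 lower genes, with a median log2 fold change of 0.0695 over the tested genes, against 0.00136 with TMM scaling. The TMM factors were 1.015 to 1.03 in XKO and 0.951 to 1.012 in XWT, and why they differ was not tested. Leaving out a library also lowers the residual degrees of freedom. The labels do not say whether equal replicate numbers mark a shared animal or day. Deviations from the group means correlated at -0.04, -0.04 and -0.05 for equal numbers, and no XKO library correlated best with its own number. With 3 libraries per group such deviations depend on each other, so this check cannot exclude pairing. With the replicate block 1068 genes were higher and 1127 lower, against 860 and 1145 without it. For the other named genes and lists, 736 results kept their side of the threshold or their count within 1.5 times, 59 calls were lost, 4 were gained, 68 counts moved and 0 reversed. Depth limits the precision of Thrb, with 37 counts in all of XKO and 93 in all of XWT.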
